A study of Mus musculus with 8 samples.

Results

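The 37 RNAs encoded by the mouse mitochondrial genome were examined in an RNA immunoprecipitation sequencing (RIP-seq) experiment, in which a protein is captured from lysed cells with an antibody and its bound RNA is sequenced. They were picked out by their Ensembl gene identifiers and make up 37 of the 54838 gene IDs counted. They comprise 13 mRNAs, 2 ribosomal RNAs (rRNAs) and 22 transfer RNAs (tRNAs). The 4 Exosc10 libraries were made with a rabbit Exosc10 antibody. Exosc10 is an exoribonuclease that works with the nuclear RNA exosome. The 4 IgG libraries are mock pull-downs, made with normal rabbit IgG, and measure the background. Both groups used dissociated cells of C57BL/6 cortex at embryonic day 12.5, and the labels give no genotype or treatment beyond the antibody. Input RNA was not analysed here, and each value sets one pull-down against the other.

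Mitochondria carry a small circular genome that is transcribed on both strands into long polycistronic RNAs, which are cut at the tRNAs into mRNAs, rRNAs and tRNAs. The mRNAs encode subunits of the respiratory chain and of ATP synthase, and the rRNAs and tRNAs serve the mitochondrial ribosome that translates them. Mitochondrial RNA is made and degraded inside the organelle by enzymes of its own, whereas Exosc10 is known mainly from the nucleus and nucleolus. The RefSeq table of assembly GRCm38.p6 likewise holds 13 protein-coding, 2 rRNA and 22 tRNA genes on the mitochondrial chromosome. It gives no Ensembl IDs, and the count files give no symbols, so 0 IDs were matched to a symbol through them. The class of each member, and the names mt-Nd6 and mt-Nd4l, came with the list of members. All others are given by Ensembl ID. Mt-Nd6 encodes a membrane subunit of complex I, the NADH dehydrogenase, and is the only mRNA read from the light strand. It lies at chrMT:13552-14070 in RefSeq (GRCm38.p6), where its end overlaps ND5, at chrMT:11742-13565.

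Library totals ran from 20967743 to 34506709 counts, and the library numbered 1 was the shallowest in each group. The 2 libraries numbered 1 also stood apart in the makeup of their mitochondrial mRNA, as described below, so the main results are given with and without them. That choice was made after the data had been seen, so the results without them serve as a description. Nothing in the labels tells whether the 4 libraries of an antibody stem from separate litters or cultures. The p-values therefore reflect only the spread among these libraries, possibly a technical one. The tissue label was not checked against marker genes, because the files hold no symbols.

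**Figure D1:**
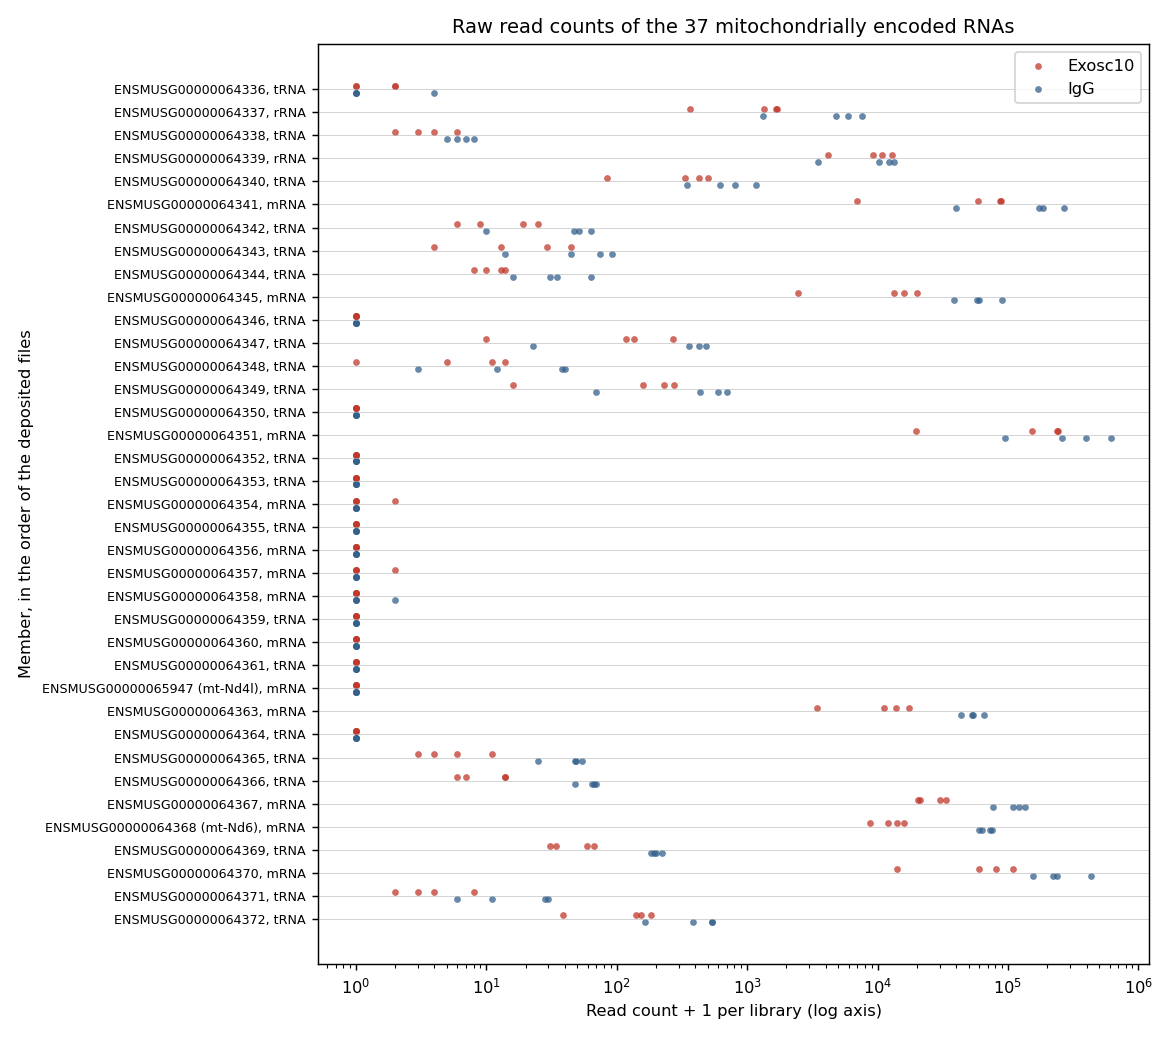
Raw read count plus 1 on a log axis (x) for each of the 37 members in the order of the deposited files (y), 1 point per library, Exosc10 in red and IgG in blue. The 11 members from ENSMUSG00000064352 to ENSMUSG00000065947 hold at most 1 read in any library, while the mRNAs on either side reach 619226 and 65468 reads.

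Reads were found for only some of the members. Of the 37 members, 26 had at least 1 read in any library, and 20 had enough reads to be tested, namely 7 of the 13 mRNAs, both rRNAs and 11 of the 22 tRNAs. The 6 untested mRNAs were ENSMUSG00000064354, ENSMUSG00000064356, ENSMUSG00000064357, ENSMUSG00000064358, ENSMUSG00000064360 and ENSMUSG00000065947, which is mt-Nd4l, another complex I subunit. None of them had more than 1 read in any library of either group. They stand together in the files, in an unbroken run of 11 members with 5 tRNAs among them, and the whole run held 3 reads over all 8 libraries. The next member before the run, the mRNA ENSMUSG00000064351, had 19873 to 619226 reads per library, and the next after it, the mRNA ENSMUSG00000064363, had 3443 to 65468. A count of 0 allows a level of up to 0.143 CPM (counts scaled to a library of 1000000) in the shallowest library and 0.0869 CPM in the deepest, for counting error only. RefSeq places mt-Nd4l (ND4L) at chrMT:9877-10173, with a length of 297 bases. It also lists a pseudogene of 297 bases, Gm10222, at chr1:24612404-24612700, and close to it a pseudogene, Gm10925, at chr1:24613971-24614651. Gm10925 has mt-Atp6 among its synonyms and the 681 bases of the mitochondrial ATP6. How reads that match several places were counted was not given in the sources used here, and the part of such copies in the 0 counts was not tested. These 6 mRNAs therefore give no information on either pull-down, and counts of the 13 mRNAs rest on the other 7.

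The mitochondrial RNAs as a whole took a smaller share of the Exosc10 libraries. All 37 members together held 0.389, 1.1404, 1.68 and 1.45% of the counts in Exosc10 libraries 1 to 4 and 2.63, 3.57, 6.72 and 3.78% in IgG libraries 1 to 4. The groups did not overlap: the highest Exosc10 library lay below the lowest IgG library, and IgG library 3 was the highest of all. The means were 1.16 ± 0.562% and 4.18 ± 1.77% (SD, n = 4 each), a 3.59-fold difference, and they were 1.42% and 4.69% (n = 3 each) without the libraries numbered 1. No test was made of these sums, since the members were proposed with results of these data known. Of the 10 genes with the most counts in a library, 0, 3, 3 and 3 were members in Exosc10 libraries 1 to 4, and 4, 4, 6 and 5 in IgG libraries 1 to 4. In a bulk pull-down a lower share cannot be assigned to fewer cells of a type, less RNA per cell or less RNA recovered. These cannot be told apart from each other, or from more recovery of other RNA, since the counts give no amounts. CPM values and fold changes are relative in the same way.

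Nearly all mitochondrial counts were mRNA. The 13 mRNAs held 0.368, 1.10, 1.64 and 1.40% of the counts with Exosc10 and 2.61, 3.48, 6.63 and 3.72% with IgG, again without overlap. The 22 tRNAs held 0.00282 ± 0.00131% with Exosc10 and 0.00910 ± 0.00312% with IgG (SD, n = 4 each), also without overlap. The 2 rRNAs held 0.0209, 0.0359, 0.0389 and 0.0422% with Exosc10 and 0.0231, 0.0762, 0.0762 and 0.050% with IgG. Here the groups overlapped, since IgG library 1 lay among the Exosc10 libraries. Per mRNA count there were 0.0238 to 0.0567 rRNA counts in the Exosc10 libraries and 0.00886 to 0.0219 in the IgG libraries, so rRNA made up more of the mitochondrial counts in the Exosc10 pull-down. The 2 rRNAs differed in this. ENSMUSG00000064337 had a log2 fold change (Exosc10 over IgG) of -2.20, near the median of -2.27 of the tested mRNAs, and ENSMUSG00000064339 had -0.31. Whether rRNA was removed or polyadenylated RNA selected before sequencing was not given in the sources used here.

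Of the 20 tested members, 13 were lower in the Exosc10 pull-down and 0 were higher in the quasi-likelihood test of edgeR (adjusted p below 0.05). Of all 16716 genes tested in the same fit, 973 (5.82%) were lower and 1324 (7.92%) higher. With scaling by the upper quartile these counts became 1369 lower and 1025 higher, and the median over all genes moved from -0.03 to -0.11 (log2 fold change), while 14 members were lower and 0 higher. The median log2 fold change of the 20 tested members was -1.90. All 13 called members were at least 2-fold lower, and 1.69% of all tested genes were both called and lower by that much. Of the 20, 12 had every Exosc10 library below every IgG library, against 8.45% of all tested genes. The filter on low counts can pass a gene through its higher group alone. In 1 tested member, the tRNA ENSMUSG00000064365, no Exosc10 library reached the filter's 0.36 CPM, and in 6, that one included, fewer than 4 did. The other 14 members reached it in all 8 libraries, and 9 of them were called lower. Over the 26 members with any read, with no filter, 19 were lower and 0 higher, with 3.49% of the 30694 genes of that fit lower. Without the libraries numbered 1, 19 of 20 tested members were lower and 0 higher, with 15.1% of all genes lower in that fit.

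**Figure D2:**
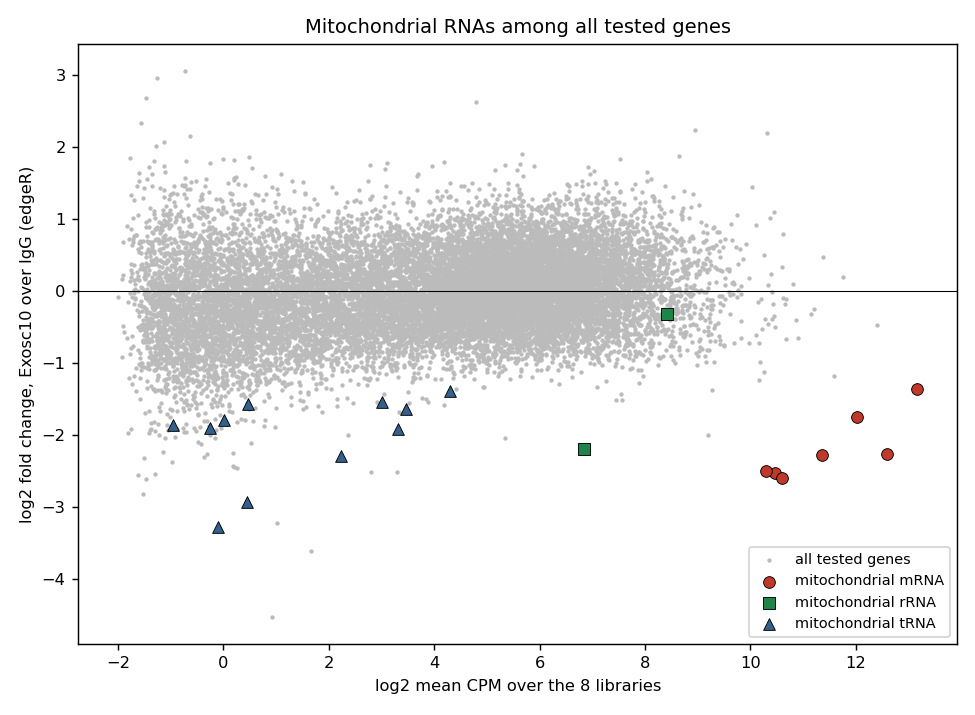
Log2 fold change of Exosc10 over IgG (y) against log2 of the mean CPM over 8 libraries (x) for the 16716 tested genes in grey and the 20 tested members in colour, with circles for mRNAs, squares for rRNAs and triangles for tRNAs. The 7 mRNAs lie at the high end of abundance, between -2.60 and -1.36, and the other 26 of the 33 highest genes lie between -1.19 and 2.19.

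The mRNAs were among the most abundant RNAs in the libraries. By mean CPM, which is not corrected for transcript length, the 7 counted mRNAs ranked 1, 2, 4, 8, 19, 22 and 33 among the tested genes. The other 26 of the 33 highest genes had log2 fold changes from -1.19 to 2.19 with a median of -0.14. Of these 26, 3 were called lower, 1 of them by at least 2-fold. Of the 1672 genes with the highest mean CPM, 6.7% were called lower, and 5 of the 8 members among them were.

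**Figure D3:**
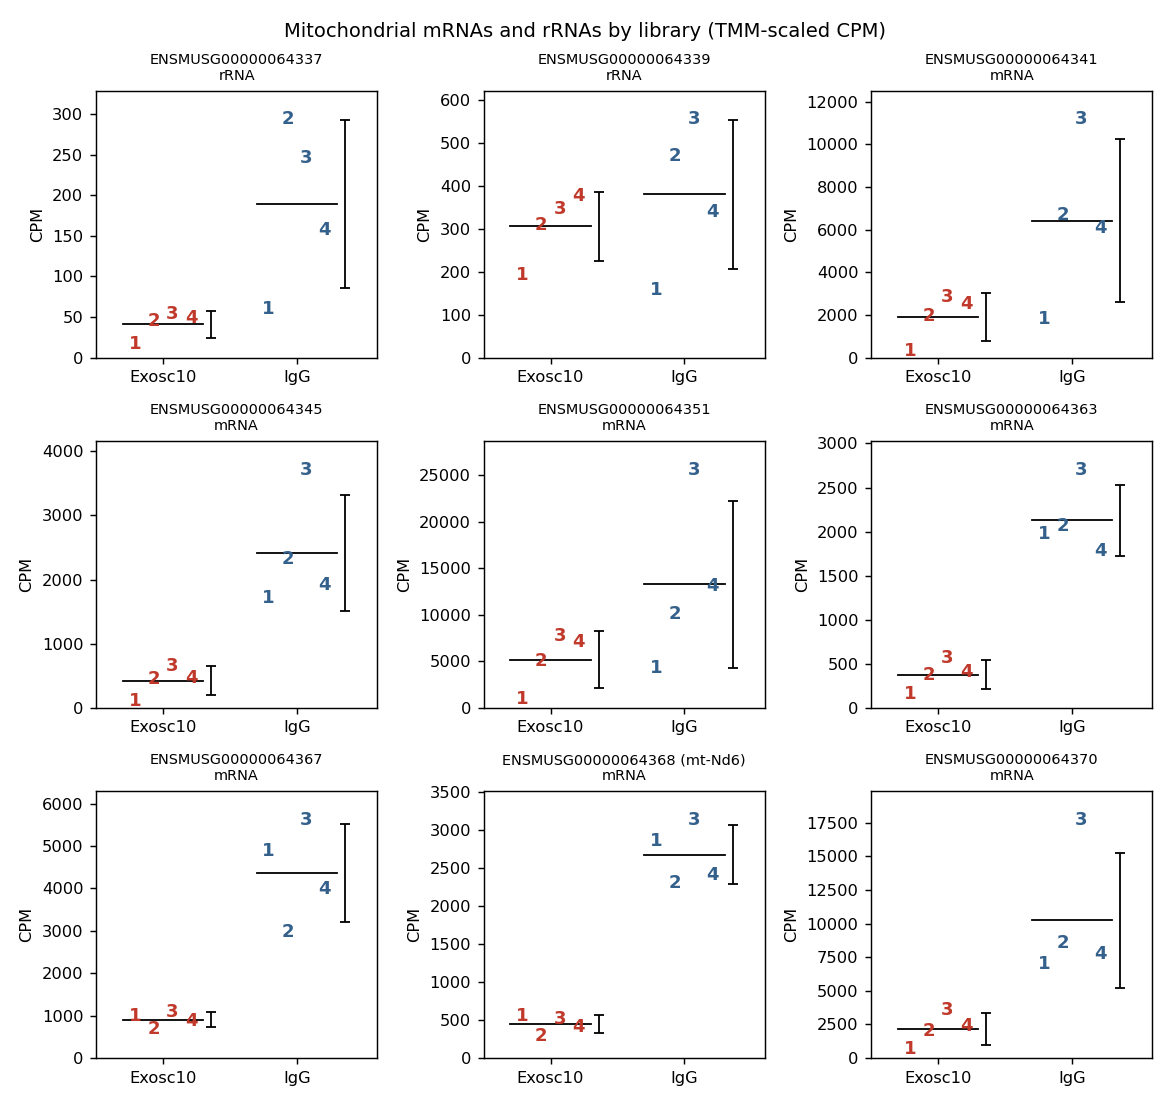
TMM-scaled CPM (y) of the 7 counted mRNAs and the 2 rRNAs in the Exosc10 and IgG libraries (x), with each library shown by its number, a line at the group mean and a bar of 1 SD to each side. In mt-Nd6 all Exosc10 libraries lie at 291 to 554 CPM and all IgG libraries at 2307 to 3136 CPM, whereas in the rRNA ENSMUSG00000064339 the groups overlap.

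The light-strand mRNA ENSMUSG00000064368 (mt-Nd6) had the largest fold change among the mRNAs, within 1 SE of the next ones. It stood at 554, 291, 514 and 410.1 CPM in Exosc10 libraries 1 to 4 and at 2853, 2307, 3136 and 2409.7 CPM in IgG libraries 1 to 4. All IgG libraries were far above all Exosc10 libraries, the libraries numbered 1 included. The means were 442 ± 118 and 2676 ± 387 CPM (SD, n = 4 each). The log2 fold change was -2.60 ± 0.23 (SE, 95% confidence interval -3.09 to -2.11, edgeR adjusted p = 0.000195), which is 6.05-fold lower with Exosc10. Without the libraries numbered 1 it was -2.69 ± 0.20 (SE). The strand setting of the counting was not given in the sources used here, so reads from mt-Nd6 and from heavy-strand RNA that runs antisense to it cannot be told apart.

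The heavy-strand mRNAs ENSMUSG00000064345 and ENSMUSG00000064363 fell nearly as far. ENSMUSG00000064345 stood at 113, 445, 653 and 469.5 CPM in the Exosc10 libraries and at 1715, 2322, 3715 and 1909 CPM in the IgG libraries, with a log2 fold change of -2.52 ± 0.41 (SE, edgeR adjusted p = 0.00262). ENSMUSG00000064363 stood at 159, 371, 566 and 403 CPM with Exosc10 and at 1971, 2061, 2703 and 1774 CPM with IgG, with a log2 fold change of -2.50 ± 0.31 (SE, edgeR adjusted p = 0.000912). In both, Exosc10 library 1 was the lowest of all 8 libraries, IgG library 3 was the highest, and the groups did not overlap.

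The mRNAs ENSMUSG00000064367 and ENSMUSG00000064370 were lower as well. ENSMUSG00000064367 stood at 979.6, 675, 1078 and 874 CPM with Exosc10 and at 4884, 2959.7, 5619 and 3983 CPM with IgG, a log2 fold change of -2.27 ± 0.23 (SE, edgeR adjusted p = 0.000277). Here Exosc10 library 1 lay among the others. ENSMUSG00000064370 stood at 649, 1992, 3537 and 2372 CPM with Exosc10 and at 7019, 8532, 17729.5 and 7739.8 CPM with IgG, a log2 fold change of -2.26 ± 0.42 (SE, edgeR adjusted p = 0.00507). IgG library 3 had more than any other library, and the groups did not overlap.

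The remaining counted mRNAs, ENSMUSG00000064351 and ENSMUSG00000064341, did not pass the test. ENSMUSG00000064351, the gene with the highest mean CPM of all, stood at 921, 5068, 7661 and 7066 CPM with Exosc10 and at 4257, 10095, 25570.2 and 13097 CPM with IgG, a log2 fold change of -1.36 ± 0.55 (SE, edgeR adjusted p = 0.111). ENSMUSG00000064341 stood at 325, 1962, 2859.8 and 2535 CPM with Exosc10 and at 1805, 6661, 11159 and 6056 CPM with IgG, a log2 fold change of -1.74 ± 0.55 (SE, edgeR adjusted p = 0.0504), just outside the threshold. In both, library 1 was the lowest of its group, and IgG library 1 lay below the highest Exosc10 library, so the groups overlapped. Without both libraries numbered 1 the log2 fold changes were nearly the same, -1.30 ± 0.27 and -1.70 ± 0.22 (SE), and both were called in edgeR. Leaving these libraries out was chosen after their values had been seen, so these calls serve as a description. Both also passed without IgG library 1 alone, at log2 fold changes of -1.64 and -2.04, and ENSMUSG00000064341 without Exosc10 library 1 alone, at -1.39. Leaving out any one of Exosc10 libraries 2, 3 and 4 or IgG libraries 2, 3 and 4 gave neither a call. Without IgG library 3 they stood at -0.82 and -1.34 (edgeR adjusted p = 0.355 and 0.155). In DESeq2 ENSMUSG00000064341 passed (adjusted p = 0.0239) and ENSMUSG00000064351 did not (adjusted p = 0.117). With library number as a block in the fit, both passed too (edgeR adjusted p = 0.00057 and 0.000106), at -1.46 and -1.86. In that fit 12% of all tested genes were lower. The labels do not state that libraries of equal number were paired.

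**Figure D4:**
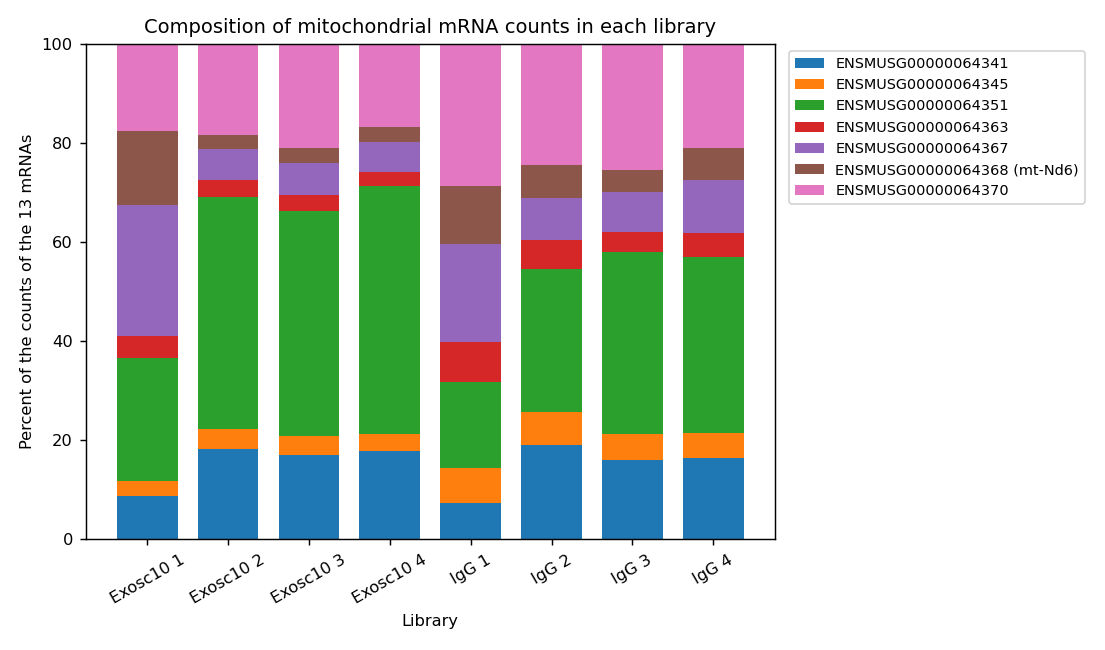
Percent of the counts of the 13 mRNAs (y) held by each of the 7 counted mRNAs, stacked, in each library (x). In both libraries numbered 1 the purple and brown segments, ENSMUSG00000064367 and mt-Nd6, are larger and the green segment, ENSMUSG00000064351, is smaller than in the other libraries of their group.

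The makeup of the mitochondrial mRNA, which does not depend on library scaling, differed between libraries numbered 1 and the rest. Mt-Nd6 held 15, 2.69, 3.05 and 2.90% of the counts of the 13 mRNAs in Exosc10 libraries 1 to 4 and 11.6, 6.60, 4.50 and 6.52% in IgG libraries 1 to 4. Library 1 was the highest in each group, and the groups overlapped through it. Without the libraries numbered 1 the Exosc10 values, 2.69 to 3.05%, lay below the IgG values, 4.50 to 6.60%. The difference of the means, -1.41 percentage points, became 0.0276 without IgG library 1 and -4.44 without Exosc10 library 1, so its direction rests on these libraries. ENSMUSG00000064367 held 26.5, 6.25, 6.39 and 6.19% with Exosc10 and 19.9, 8.47, 8.07 and 10.8% with IgG, also highest in both libraries numbered 1. ENSMUSG00000064351 held 24.9, 46.9, 45.4 and 50.006% with Exosc10 and 17.4, 28.9, 36.7 and 35.4% with IgG, and was lowest in both libraries numbered 1. Among libraries 2 to 4 its share was higher with Exosc10, at 45.4 to 50.006%, than with IgG, at 28.9 to 36.7%. ENSMUSG00000064345 was the only one of the 7 whose shares did not overlap between the full groups, at 3.06 to 4.11% with Exosc10 and 5.16 to 7.0% with IgG. No test was made of the differences between the mRNAs.

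Of the 2 rRNAs, which form the cores of the small and the large subunit of the mitochondrial ribosome, 1 was lower in the Exosc10 pull-down and the other did not pass the test. ENSMUSG00000064337 stood at 16.9, 44.6, 54.0 and 49.1 CPM with Exosc10 and at 59.3, 293, 246 and 157 CPM with IgG. The groups did not overlap, although IgG library 1, the lowest of its group, was close to the highest Exosc10 library. Its log2 fold change was -2.20 ± 0.43 (SE, 95% confidence interval -3.11 to -1.29, edgeR adjusted p = 0.00607). ENSMUSG00000064339 stood at 193, 308, 347 and 377 CPM with Exosc10 and at 158, 471, 555 and 339 CPM with IgG. The groups overlapped widely, and library 1 was again the lowest in each. Its log2 fold change was -0.31 ± 0.32 (SE, 95% confidence interval -0.99 to 0.36, edgeR adjusted p = 0.538), and this interval reaches from a fall of nearly 1 log2 unit to a small rise. It was the only tested member that was not called without both libraries numbered 1, at -0.41 ± 0.17 (SE, edgeR adjusted p = 0.0806).

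Within a library the ratio of the rRNAs is free of scaling. Per count of ENSMUSG00000064337 there were 11.5, 6.91, 6.42 and 7.68 counts of ENSMUSG00000064339 in Exosc10 libraries 1 to 4 and 2.66, 1.61, 2.26 and 2.16 in IgG libraries 1 to 4. Every Exosc10 library was above every IgG library. On the log2 scale the mean ratios were 2.98 ± 0.37 and 1.09 ± 0.30 (SD, n = 4 each), a 3.70-fold difference between the groups. This ratio was chosen after its values had been seen, so no p-value is given for it and it serves as a description.

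**Figure D5:**
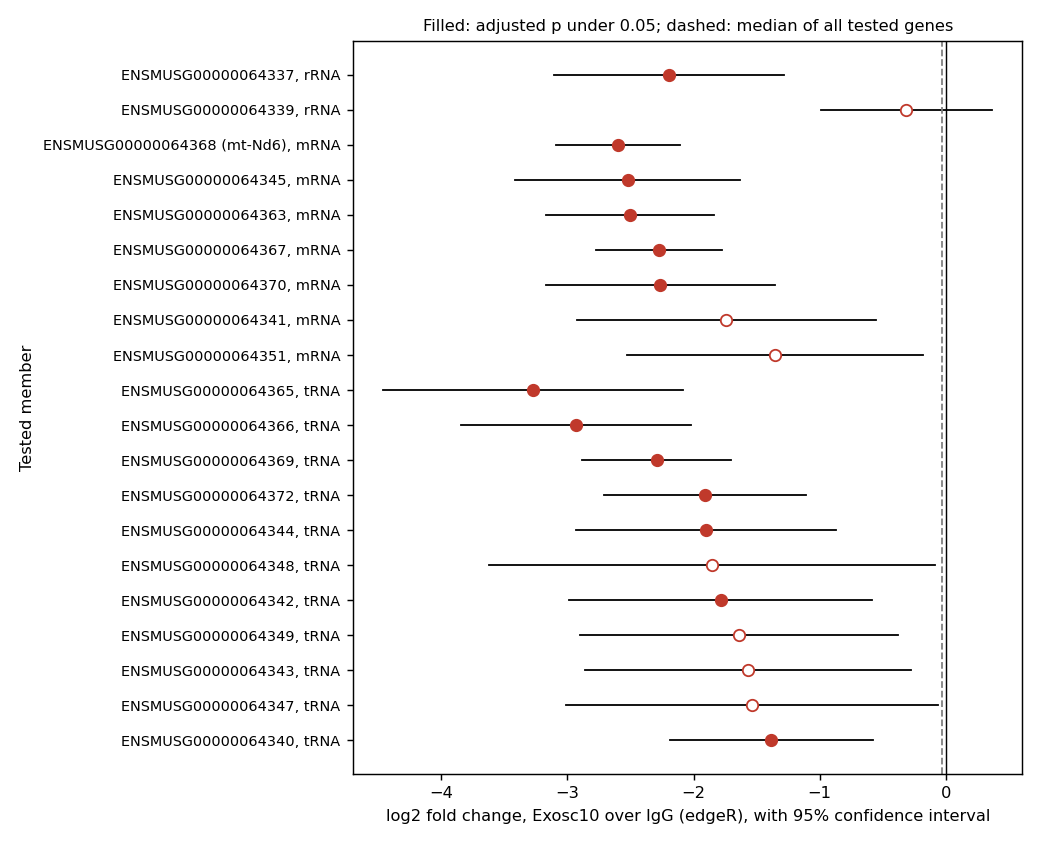
Log2 fold change of Exosc10 over IgG (x) with its 95% confidence interval for the 20 tested members (y), grouped into rRNAs, mRNAs and tRNAs. Filled points passed an adjusted p of 0.05, and the dashed line marks the median of all tested genes at -0.03. All 20 points lie below 0, and the rRNA ENSMUSG00000064339 lies nearest to it.

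The tRNAs, which carry amino acids to the mitochondrial ribosome, were counted far more sparsely. Of the 22, 8 had no read in any library and 3 more had at most 29 in any. Of the 11 tested, 7 were lower and 0 higher, against 5.82% lower among all tested genes. Of the 5 tRNAs that reached the filter's level in all 8 libraries, 3 were lower, and the other 6 had passed the filter with fewer Exosc10 libraries at that level than IgG libraries. The 11 had log2 fold changes from -3.27 to -1.38 and a median of -1.85. ENSMUSG00000064365, which passed the filter through the IgG libraries alone, had 3, 5, 10 and 2 reads in Exosc10 libraries 1 to 4 and 47, 24, 53 and 48 in IgG libraries 1 to 4. Every IgG library had more reads than any Exosc10 library, and the log2 fold change was -3.27 ± 0.55 (SE, edgeR adjusted p = 0.00317). ENSMUSG00000064366 had 6, 5, 13 and 13 reads with Exosc10 and 66, 47, 68 and 64 with IgG, again without overlap, and its log2 fold change was -2.93 ± 0.43 (SE, edgeR adjusted p = 0.00157). Both rest on few Exosc10 reads, ENSMUSG00000064366 reached the filter's level in only 2 Exosc10 libraries, and neither was tested at a mean of at least 5 CPM, so their folds are given as a description of these libraries.

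Of the other called tRNAs, 3 had more reads and gave the same direction. ENSMUSG00000064369 had 33, 30, 66 and 58 reads with Exosc10 and 183, 223, 192 and 198 with IgG, a log2 fold change of -2.29 ± 0.28 (SE, edgeR adjusted p = 0.000646). It was not tested at a mean of at least 5 CPM. ENSMUSG00000064372 had 38, 140, 181 and 152 reads with Exosc10 and 163, 540, 540 and 384 with IgG, a log2 fold change of -1.91 ± 0.37 (SE, edgeR adjusted p = 0.00635). ENSMUSG00000064340 had 84, 334, 428 and 502 reads with Exosc10 and 344, 619, 1160 and 813 with IgG, a log2 fold change of -1.38 ± 0.38 (SE, edgeR adjusted p = 0.0274). All 3 had no overlap between the groups in CPM, and ENSMUSG00000064340 was the closest to overlapping, at 14.7 CPM in the highest Exosc10 library and 15.4 CPM in the lowest IgG library. ENSMUSG00000064344 (log2 fold change -1.90 ± 0.48, SE, edgeR adjusted p = 0.0204) and ENSMUSG00000064342 (-1.78 ± 0.56, SE, edgeR adjusted p = 0.0486) completed the called tRNAs. These were sparse, with 7 to 13 and 5 to 24 reads per Exosc10 library and 15 to 63 and 9 to 63 per IgG library. Both reached the filter's level in only 2 Exosc10 libraries, and neither was tested at a mean of at least 5 CPM. The groups of ENSMUSG00000064342 overlapped in CPM. Calls of 3 of these tRNAs depended on single libraries. ENSMUSG00000064340 was not called without Exosc10 library 2 or any one of IgG libraries 2, 3 and 4, where its log2 fold changes were -1.39, -1.46, -1.01 and -1.41. ENSMUSG00000064344 was not called without Exosc10 library 2 or 4 or IgG library 3 or 4, at -1.74, -1.89, -1.88 and -1.60. ENSMUSG00000064342 was called in the full data and without IgG library 1, but not without any one of the other 7 libraries, at -2.17 to -1.59.

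The 4 tested tRNAs without a call were ENSMUSG00000064343, ENSMUSG00000064347, ENSMUSG00000064348 and ENSMUSG00000064349, with log2 fold changes of -1.57 ± 0.60, -1.53 ± 0.69, -1.85 ± 0.82 and -1.64 ± 0.59 (SE). Their edgeR adjusted p-values were 0.0957, 0.148, 0.145 and 0.0769. In each, library 1 was the lowest of its group and IgG library 1 lay among or below the Exosc10 libraries. ENSMUSG00000064347, for example, had 9, 134, 116 and 268 reads with Exosc10 and 22, 424, 360 and 484 with IgG, so that IgG library 1 stood with Exosc10 library 1 and far below the other IgG libraries. Without both libraries numbered 1, left out after their values had been seen, all 4 were called, at -1.56, -1.55, -1.87 and -1.63. Leaving out any single library other than IgG library 1 called none of them, with edgeR adjusted p-values of up to 0.229, 0.288, 0.326 and 0.180. In DESeq2 ENSMUSG00000064343 was called (adjusted p = 0.040), and ENSMUSG00000064347 and ENSMUSG00000064349 were not (adjusted p = 0.258 and 0.140). With library number as a block in the fit, all but ENSMUSG00000064348 (edgeR adjusted p = 0.0562) were called, with 12% of all tested genes lower. Of the untested tRNAs, ENSMUSG00000064371 had 1, 3, 7 and 2 reads with Exosc10 and 29, 10, 27 and 5 with IgG, ENSMUSG00000064338 had 3, 2, 5 and 1 with Exosc10 and 4, 6, 7 and 5 with IgG, and ENSMUSG00000064336 had at most 3 in any library. A tRNA read may come from a mature tRNA or from an uncut precursor, and the counts do not separate these.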

How the data were processed

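RIP-seq was analysed in 4 Exosc10 and 4 IgG libraries. The authors deposited raw read counts for 54838 Ensembl gene IDs per library. Per the submitters' processing notes, featureCounts 1.5.0-p1 was used, with STAR 2.5.2a, bcl2fastq 2.17.1.14 and build mm10. The sources used here do not give the annotation release, the strand setting or the handling of multimapping reads. The limit that a count of 0 allows covers counting error only, as the sources name no molecular identifiers.

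The test used R 4.3.3 and edgeR 4.0.16 with filterByExpr (minimum count 10, minimum total 15), TMM scaling, a quasi-likelihood F-test without covariates, and Benjamini-Hochberg adjustment over all 16716 tested genes, read at 0.05. The SE is the size of the fold change divided by the square root of F. The test was also run on simulated independent libraries with rises only, so falls such as those reported here were not simulated. Alternatives were DESeq2 1.42.0, limma-voom (limma 3.58.1), other scalings and filters, a replicate block, thinning, and leaving out libraries; leaving out both libraries numbered 1 was added after seeing the data. The members and lists were chosen with earlier results of these data known. All tested members, the rRNAs and mt-Nd6 were named by rule. Lists and markers given by symbol were not run, because no symbol was matched.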

Additional observations from a re-analysis of the deposited data

Results flagged for a closer look

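In 74 groups of 4 libraries, over the tested members' CPM and the library measures, 7 had a highest or lowest library far from the other values by Dixon's test at its 95% critical value, which flags about 1 group in 20 by chance. In the Exosc10 group, library 1 stood apart in 4 measures. It had 15% of the mRNA counts in mt-Nd6 against at most 3.05% in the others, and 26.5% in ENSMUSG00000064367 against at most 6.39%. It had 8.77% in ENSMUSG00000064341 against at least 17.0%. Outside the members, its 10 highest genes held 3.75% of the counts against at most 2.48%. In the IgG group, library 1 was low in the tRNAs ENSMUSG00000064342, at 0.404 CPM against at least 1.90, and ENSMUSG00000064347, at 0.987 CPM against at least 14.9. IgG library 3 was high in the mRNA ENSMUSG00000064370, at 17729.5 CPM against at most 8532.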

How the results depend on the processing

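The 13 called members had a log2 fold change below 0 in each of the 19 alternatives that tested them. At a mean of at least 5 CPM, ENSMUSG00000064365 and ENSMUSG00000064366 were among those not tested. Of 242 comparisons, 226 kept the call and 16 lost it, all 16 among the tRNAs ENSMUSG00000064340, ENSMUSG00000064342 and ENSMUSG00000064344. Members called lower were 10 to 18 without 1 library, against 1.54 to 10.7% of all tested genes. The high end came without IgG library 1, where 10.7% of all genes were lower. The low end came without Exosc10 library 2 or IgG library 3, where 1.56 and 1.85% were. The share of all tested genes called lower in the same fit stands in brackets below. Members called lower were 14 with library totals (5.96%), 13 with median ratios (5.81%) and 13 with scaling computed without the members (5.8%). They were 15 with DESeq2 (9.11%) and 19 with limma-voom (18%). At a mean of at least 5 CPM they were 9 of 13 tested (9.92%), and after thinning 13 of 19 (6.01%). In no alternative was any member called higher. The members' median log2 fold change ran from -2.17 to -1.79.

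Over all genes, 973 lower and 1324 higher calls became 1522 lower with DESeq2 (1869 higher), 3011 lower and 3363 higher with limma-voom, and 2555 lower and 2908 higher without both libraries numbered 1. Without 1 library they were 261 to 1828 lower and 588 to 2218 higher; the cause was not tested. Libraries of one number deviated together with correlations of 0.34, 0.095, 0.34 and 0.22, so 1 of 4 was under 0.1 and the numbers were not taken as pairs, although each library correlated best with its own number. With the replicate block 18 members were lower and 0 higher, ENSMUSG00000064341 and ENSMUSG00000064351 among the 18. Over all genes 2006 (12%) were lower and 2489 higher. The mt-Nd6 share of mRNA counts, a difference of -1.41 percentage points, ran from -4.44 to 0.0276 without 1 library and reversed without IgG library 1. The alternative without mt-Nd4l and mt-Atp8 was not run, because mt-Atp8 has no ID here; mt-Nd4l holds 0 reads. Sparse tRNAs limit what the depth can show.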
